A study of Mus musculus with 126 samples.

Results

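The genes described here are 10 target and feedback genes of the WNT pathway: Lef1, Tcf7, Sp5, Axin2, Nkd1, Notum, Znrf3, Rnf43, Apcdd1 and Ccnd1. They were taken by symbol from a table of 48490 gene identifiers, and all 10 were found. The cells came from the mouse endolymphatic sac, the blind end of the inner ear that helps to regulate its fluid, at stage E14.5 of embryonic development. The labels give 33 wild-type cells and 93 cells heterozygous for the Sox9 Y440X allele (Sox9 Y440X/+), called mutant cells below, with no treatment and no transgene named. Complementary DNA was made from each cell by Smart-seq2, which copies full-length transcripts without molecular identifiers. Within the mutant cells, the genes were also described by whether a cell had the ligand genes Wnt6 and Wnt10a at 1 FPKM or more. FPKM gives the fragments of a gene relative to its transcript length and to all mapped fragments of that cell, and a gene at 1 FPKM or more is called detected.

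In canonical WNT signalling, a secreted WNT ligand binds Frizzled and LRP receptors and stops the destruction complex from degrading beta-catenin, which then acts with TCF and LEF factors on target genes. Many of these targets feed back on the pathway: Axin2 is a scaffold of the destruction complex, Nkd1 binds Dishevelled, Notum is a secreted enzyme that removes the lipid that WNT ligands need, Znrf3 and Rnf43 are ubiquitin ligases that clear Frizzled from the membrane, and Apcdd1 is a membrane-bound inhibitor. Lef1 and Tcf7 encode transcription factors of the pathway, Sp5 a transcriptional repressor induced by it, and Ccnd1 the cell cycle regulator cyclin D1. In the inner ear, canonical WNT signalling is known for its part in dorsal patterning, from which the endolymphatic apparatus arises.

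Several facts bear on every comparison. The labels name no animal, litter or plate, so each genotype counts as 1 sample, cells are not replicates, and no test between groups was made. Wild-type cells listed a median of 5329 genes above 0 FPKM (2189 to 6493), against 4423 for the mutant cells (2035 to 9358). The read depth is unknown. All 93 mutant cells and 1 wild-type cell have titles with the prefix P9, and 32 wild-type cells have P10; what these prefixes stand for is not stated. A Y-linked gene was detected in 32 wild-type cells and 4 mutant cells, and Xist in 0 wild-type and 81 mutant cells. The 4 mutant cells with a Y-linked gene, all without Xist, stand apart. After the prefix, their titles hold the letters D to G and the same number as the wild-type cell with P9, which holds H. Whether these cells carry the right genotype label was not tested. They stay in the mutant totals, and only some values are also given without them. Genotype, prefix and sex therefore cannot be told apart. Epcam, an epithelial marker, passed 1 FPKM in 96.97% of the wild-type cells and 87.1% of the mutant ones. From marker lists and clustering, 29 wild-type and 77 mutant cells were epithelial-like, 3 and 9 were like mitochondria-rich cells, and 1 and 7 were mesenchymal-like.

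Promoter windows show the sequence around the start of 3 of the genes, chosen because Lef1 had the highest relative difference between genotypes and because Axin2 and Sp5 are textbook targets. Each window holds the 250 bases before a start site, from RefSeq with build GRCm38.p6, all on the plus strand, written 5′ to 3′. Capitals mark CTTTGA or, on the other strand, TCAAAG, a core of the TCF and LEF binding motif.
Lef1, upstream start, chr3:131110047-131110296: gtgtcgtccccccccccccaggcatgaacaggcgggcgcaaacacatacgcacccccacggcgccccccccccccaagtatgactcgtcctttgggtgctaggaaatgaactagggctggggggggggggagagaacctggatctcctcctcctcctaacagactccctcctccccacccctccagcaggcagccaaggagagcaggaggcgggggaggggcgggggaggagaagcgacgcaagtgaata
Lef1, internal start, chr3:131156044-131156293: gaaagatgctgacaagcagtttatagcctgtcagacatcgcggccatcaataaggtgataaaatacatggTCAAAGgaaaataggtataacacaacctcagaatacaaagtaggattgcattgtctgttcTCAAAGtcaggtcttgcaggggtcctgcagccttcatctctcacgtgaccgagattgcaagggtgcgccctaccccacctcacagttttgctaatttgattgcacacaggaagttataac
Axin2, chr11:108920099-108920348: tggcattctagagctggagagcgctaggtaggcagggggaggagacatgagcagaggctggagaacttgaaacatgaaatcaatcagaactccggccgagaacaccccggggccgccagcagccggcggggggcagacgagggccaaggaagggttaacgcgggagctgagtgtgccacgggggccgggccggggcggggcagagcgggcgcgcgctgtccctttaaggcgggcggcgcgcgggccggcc
Sp5, chr2:70474673-70474922: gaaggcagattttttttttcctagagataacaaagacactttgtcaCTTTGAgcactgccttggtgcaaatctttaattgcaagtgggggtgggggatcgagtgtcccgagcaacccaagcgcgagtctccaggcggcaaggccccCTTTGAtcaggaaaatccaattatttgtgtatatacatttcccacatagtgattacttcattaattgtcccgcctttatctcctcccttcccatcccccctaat

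The motif lay 180 and 120 bases before the internal Lef1 start and 204 and 104 bases before the Sp5 start. No such letters were found in the window of the upstream Lef1 start or of Axin2, or in the other Lef1 windows, which are not printed. Over all promoters, 4544 of 32851 windows of this length (13.8%) held the motif on either strand. Among the genes described here, with Apcdd1 left aside and not searched, 6 had windows, 11 in all, and 2 of these 11 windows held it. A match is a description of the letters and is not a measured binding site.

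Among the transcription factors, Lef1 was more often detected and higher in mutant cells. Lef1 (ENSMUSG00000027985.14, mm10 chromosome 3, 131110471 to 131224356, plus strand) passed 1 FPKM in 8 of 33 wild-type cells (24.2%, exact binomial 95% interval 11.1 to 42.3%), with a lowest, median and highest value of 1.13, 13.1 and 141.4 FPKM in those cells. It was detected in 36 of 93 mutant cells (38.7%, 28.8 to 49.4%), at 1.68, 62.1 and 340.9 FPKM. The intervals overlap, and the median level of the detecting cells was higher in the mutant group. On the log2(FPKM + 1) scale the wild-type mean was 1.05 ± 2.05 (SD, 33 cells) and the mutant mean 2.28 ± 3.01 (SD, 93 cells), a difference of 1.23 that is smaller than either SD.

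Because fewer genes were listed in mutant cells, each difference was also set against the median of the genes compared, those detected in at least 10% of the cells. That median was -0.20, mutant minus wild type, and a relative difference is the difference less this median. The relative difference of Lef1 was 1.43. A gene counted as higher at a relative difference of 1 or more and as lower at -1 or less, and 1.58% of the 9906 compared genes were higher in this way and 6.16% were lower. Of the 10 members, 8 passed the filter for comparison, and 2 counted as higher, Lef1 and Notum, and 0 as lower. The members were chosen with earlier results of these data known, so this count cannot be weighed against the shares of all compared genes. The median relative difference of all 10 was 0.44, while 90% of compared genes lay between -1.08 and 0.75. By this construction, a gene without any value above 0 would stand at 0.20.

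Tcf7, the gene of the related factor TCF1, was found in 3 cells of the wild type (9.09%, 1.92 to 24.3%) and 17 of the mutant (18.3%, 11.02 to 27.6%), with a relative difference of 0.64. Sp5 was detected in 2 wild-type cells at 5.98 and 8.55 FPKM and in 2 mutant cells at 4.09 and 18.8 FPKM. The 2 wild-type cells list 6013 and 5983 genes, above the wild-type median. The 2 mutant cells list 7074 and 9358 genes, both far above the mutant median, and the cell at 18.8 FPKM is one of the 4 with a Y-linked gene, so 1 mutant cell with Sp5 remains without them.

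**Figure D1:**
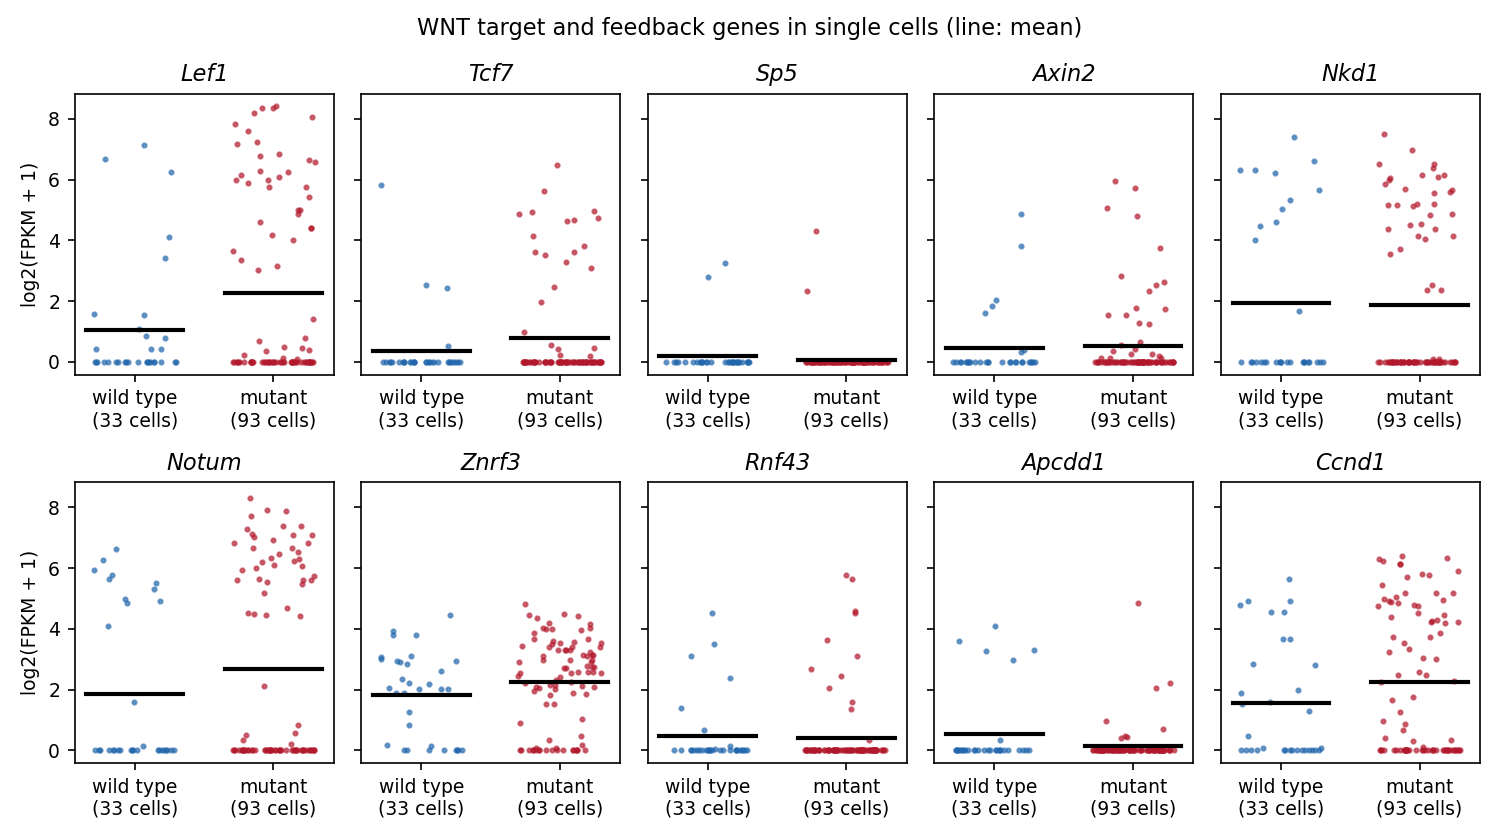
Each point is 1 cell, the y axis is log2(FPKM + 1), and the line is the mean of the 33 wild-type or 93 mutant cells. Lef1 is detected in 8 wild-type and 36 mutant cells, most other cells lie at 0, and Znrf3 is detected in the most cells of either genotype.

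The secreted and membrane-bound feedback genes differed from one another. Notum (ENSMUSG00000042988.10, chromosome 11, 120653788 to 120661175, minus strand) was detected in 12 wild-type cells (36.4%, 20.4 to 54.9%), with a lowest, median and highest value of 2.01, 41.7 and 97.8 FPKM. It was detected in 40 mutant cells (43.01%, 32.8 to 53.7%), at 3.32, 76.3 and 315.9 FPKM. On the log2(FPKM + 1) scale its mean was 1.87 ± 2.61 (SD) in the wild type and at 2.69 ± 3.16 in the mutant, and its relative difference was 1.02. The groups overlap over most of their range. The count of higher members was 1 without the wild-type cell that carries the mutant prefix, where Notum was at 0.97 and Lef1 at 1.61. That cell held Lef1 at 100.6 FPKM and Notum at 0. Leaving out the 4 mutant cells that stand apart by Y-linked genes, Lef1 was at 1.44 and Notum at 1.10.

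Znrf3 was found in 22 cells of the wild type (66.7%, 48.2 to 82.04%) and 69 of the mutant (74.2%, 64.1 to 82.7%). The wild-type mean of log2(FPKM + 1) was 1.84 ± 1.41 (SD) and the mutant mean 2.25 ± 1.47, with a relative difference of 0.61. Rnf43, a close relative of Znrf3 by function, was detected in 5 wild-type cells (15.2%) and 11 mutant cells (11.8%), with a relative difference of 0.13. Axin2 was found in 5 cells of the wild type (15.2%, 5.11 to 31.9%) and 15 of the mutant (16.1%, 9.32 to 25.2%), with a relative difference of 0.26. Nkd1 was detected in 12 wild-type cells (36.4%) and 34 mutant cells (36.6%), with a relative difference of 0.13. Over all cells, Axin2 and Nkd1 were thus found at nearly the same share in both genotypes. For Nkd1 this changed among the 61 mutant and 12 wild-type cells with 3000 to 5000 listed genes, where its shares were 32.8% and 58.3% and its relative difference was -1.19, past the threshold for lower. Apcdd1 was found in 5 cells of the wild type (15.2%, 5.11 to 31.9%) and 3 of the mutant (3.23%, 0.67 to 9.14%), so its intervals overlap, and its relative difference was -0.21. Those 5 wild-type cells list 5808 to 6417 genes, all above the wild-type median of 5329, and the 3 mutant cells list 2861, 3966 and 7074. Ccnd1 was detected in 15 wild-type cells (45.5%, 28.1 to 63.6%) at a median of 11.7 FPKM, and in 47 mutant cells (50.5%, 39.97 to 61.1%) at a median of 22.2 FPKM. Its relative difference was 0.88, below the threshold, but among cells with 3000 to 5000 listed genes it was 1.57, with Ccnd1 in 52.5% of the mutant and 25% of the wild-type cells. Of the clusters described below, cluster 3 makes up a larger part of these 12 wild-type cells than of all 33. Among wild-type cells, Nkd1 was in 63.6% of cluster 3 and 12.5% of cluster 2, and Ccnd1 in 27.3% and 56.25%. The part of this mix in the Nkd1 and Ccnd1 values was not tested.

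The other members lie on several mm10 chromosomes. Tcf7 spans 52252371 to 52283014, Axin2 108920349 to 108950783, Znrf3 5276324 to 5444847 and Rnf43 87662722 to 87735539, all on chromosome 11 with Notum. Sp5 lies on chromosome 2 (70474923 to 70477729), Nkd1 on chromosome 8 (88521354 to 88594884) and Ccnd1 on chromosome 7 (144929931 to 144939925).

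Exons of 4 of these genes overlap exons of a gene on the other strand, and reads from such stretches cannot be told apart here. The strand setting is not stated. Exons of Notum overlap those of its antisense neighbour Notumos over 708 bases, and Notumos was detected in 6 mutant cells and 1 wild-type cell, all of which also had Notum. Exons of Ccnd1 overlap those of LTO1, named Oraov1 in the table, over 1100 bases. Oraov1 was detected in 24 of the 47 mutant and 10 of the 15 wild-type cells with Ccnd1. Exons of Lef1 overlap those of the antisense gene Gm43352 over 1208 bases, and those of Axin2 overlap the antisense Gm11670 over 209 bases. Tcf7, Nkd1 and Rnf43 overlap annotated genes without a shared exonic base, and Znrf3, Sp5 and Apcdd1 overlap none.

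In epithelial-like cells, the class that makes up most of the sample, the same 2 members were higher. Lef1 passed 1 FPKM in 8 of the 29 wild-type cells (27.6%, 12.7 to 47.2%) and in 32 of the 77 mutant ones (41.6%, 30.4 to 53.4%), with a relative difference of 1.59. Notum was found in 11 cells of the wild type (37.9%, 20.7 to 57.7%) and 39 of the mutant (50.6%, 39.005 to 62.2%), with a relative difference of 1.48. Without the mutant cells that have a Y-linked gene, which left 75, Lef1 was at 1.54 and Notum at 1.49. Here 2.28% of 9712 compared genes were higher and 6.99% were lower, and 0 members were lower. The median relative difference of the 10 members was 0.43. The relative differences of other members were 0.85 for Ccnd1, 0.62 for Znrf3, 0.61 for Tcf7, 0.25 for Axin2, 0.11 for Rnf43 and 0.0044 for Nkd1.

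Markers of other cell types were also summed. In epithelial-like cells, the summed level of the 6 melanocyte markers ran from 0 to 8.11 with a median of 4.98 in wild-type cells, and from 0 to 7.14 with a median of 0 in mutant cells. Tyr, Tyrp1 and Mlana were detected in no epithelial-like cell of either genotype. The 7 glial and neural crest markers ran from 0 to 6.99 with a median of 2.77 in wild-type cells, and from 0 to 6.73 with a median of 0.36 in mutant cells, and Foxd3 and Fabp7 were detected in neither. Sox10, over all cells, was detected in 78.8% of the wild type and 10.8% of the mutant. The 10 mesenchymal markers had a median of 0 in both groups, with highest values of 9.06 and 9.80, and the lists for mitochondria-rich, neuronal, endothelial, immune and red blood cells also had a median of 0 in both. Among mutant epithelial-like cells, 3 held at least 3 mesenchymal markers, 2 at least 3 endothelial and 1 at least 3 red blood cell markers. Among wild-type ones these counts were 1, 0 and 0. At least 3 epithelial markers were found in 73 of the 77 mutant and 28 of the 29 wild-type cells. The part of these markers in the results for Lef1 and Notum was not tested. Over the cells with Epcam detected, a subset chosen after seeing the data, the relative difference was 1.60 for Lef1 and 1.28 for Notum.

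**Figure D2:**
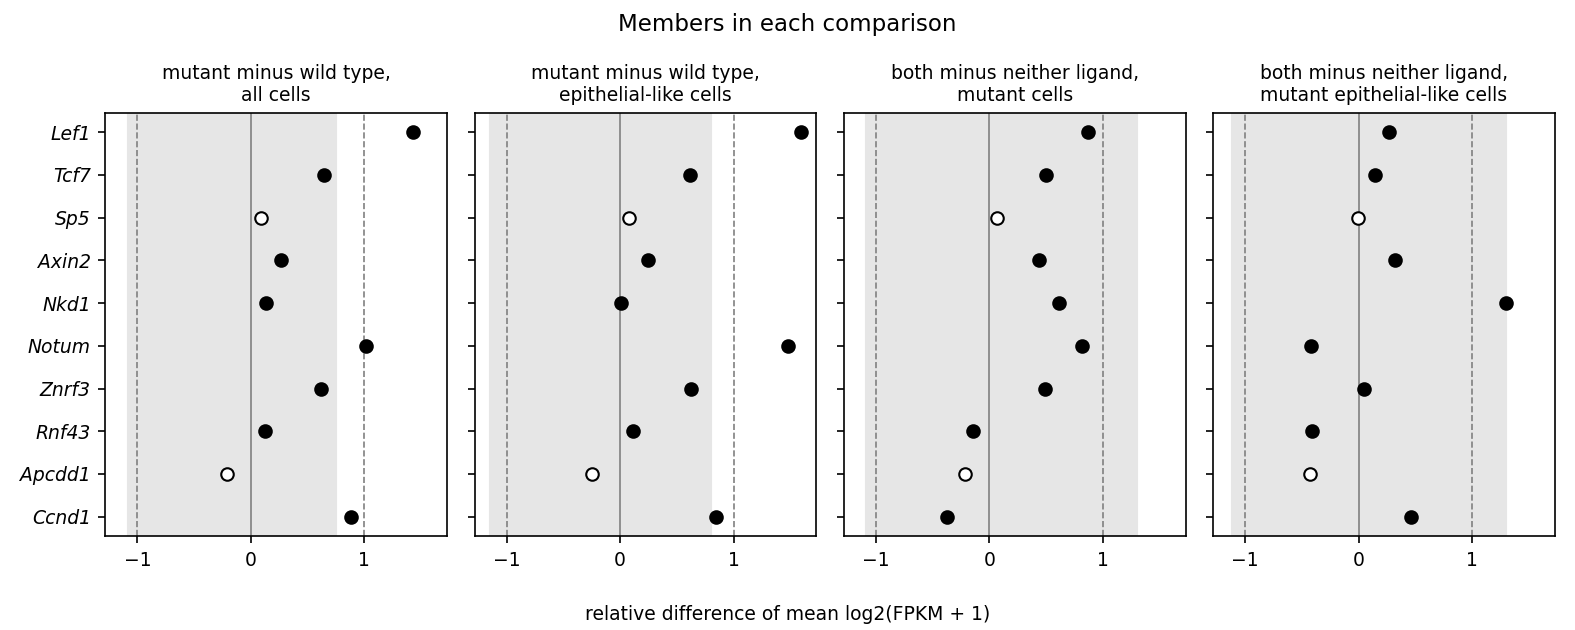
Each point is the relative difference of 1 member in 1 comparison, on the x axis, in units of log2(FPKM + 1), with open points for the 2 members that did not pass the filter. The grey band holds the middle 90% of compared genes and dashed lines stand at -1 and 1. Lef1 and Notum lie beyond 1 in both genotype comparisons.

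Clusters describe where the members were found, and are no test, since they were built from the same genes. The epithelial-like cells fell into 5 clusters, and 2 of them held cells of both genotypes in number: cluster 2 (16 wild-type and 8 mutant cells) and cluster 3 (11 and 8). In cluster 2, Lef1 was found in 0 of 16 wild-type cells, which allows up to 18.8%, whereas 2 of 8 mutant cells had it. In cluster 3 it was present in 7 of the 11 wild-type cells and 5 of the 8 mutant ones. Cluster 1, with 25 mutant cells, held 15 with Lef1 and 17 with Notum, and cluster 0, with 34 mutant cells, held 8 and 15. Within cluster 2 alone, Lef1 had a relative difference of 1.44 and Notum of -0.73. One of the 2 mutant cells with Lef1 there is a cell with a Y-linked gene, and without it the values were 1.04 and -0.51. Within cluster 3 alone, Lef1 had 0.55 and Notum 2.24. Notum thus had opposite signs in the 2 clusters, each with few mutant cells. Ccnd1 was past the threshold in both, at 1.03 in cluster 2 and 1.53 in cluster 3, and Tcf7 was at 1.03 in cluster 3. Without the mutant cell that has a Y-linked gene, Ccnd1 no longer counted as higher in cluster 2.

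The 7 mutant mesenchymal-like cells all had Ccnd1, at a mean log2(FPKM + 1) of 4.46 ± 1.90, and none had Notum, which allows a share of up to 42.9%. The 1 wild-type mesenchymal-like cell did have Notum, at 97.8 FPKM, the highest value of the wild-type cells. The 9 mutant cells like mitochondria-rich cells had Znrf3 in 8, Ccnd1 in 1 and Notum in 1.

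**Figure D3:**
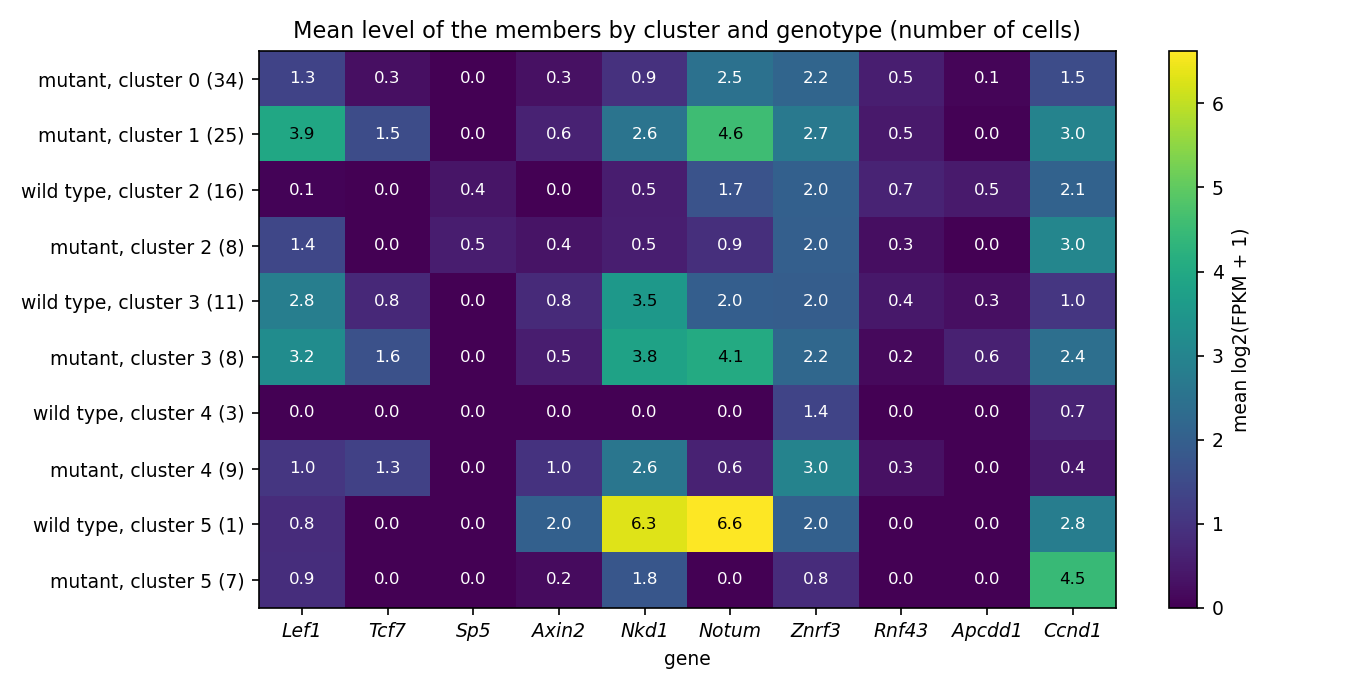
Colour and printed value give the mean log2(FPKM + 1) of each member, on the x axis, in the cells of each cluster and genotype, on the y axis, with the number of cells in brackets. Cluster 4 is like mitochondria-rich cells, cluster 5 is mesenchymal-like, and a cluster of 4 epithelial-like cells is left out. Ccnd1 is at 4.46 in the 7 mutant cells of cluster 5.

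Among mutant cells, both ligands were detected in 40, Wnt6 alone in 24, Wnt10a alone in 9 and neither in 20. These groups were set by Wnt6 and Wnt10a, so those 2 genes are only described. Wnt6 was listed at 0 in 27 mutant cells and between 0 and 1 FPKM in 2, the highest of these at 0.279, and the lowest detected value was 2.61 FPKM. Wnt10a was at 0 in 43 mutant cells and between 0 and 1 FPKM in 1, at 0.661, and its lowest detected value was 2.93 FPKM. In wild-type cells, 2 had both, 9 had Wnt6 alone, 3 had Wnt10a alone and 19 had neither, too few for a comparison.

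The mean level was higher in cells with both ligands than in cells with neither for 7 of the 10 members. The median difference of all compared genes was also above 0, at 0.10. Less this median, 7 of the 10 stayed above 0, against 50% of compared genes by construction. Of the 10 members, 0 counted as higher and 0 as lower. The background was 8.48% higher and 6.41% lower among 10032 compared genes. Lef1 was found in 19 of 40 cells with both (47.5%, 31.5 to 63.9%) and 7 of 20 with neither (35%, 15.4 to 59.2%), with a relative difference of 0.87, which was -0.65 among cells with 3000 to 5000 listed genes. Notum was detected in 20 (50%, 33.8 to 66.2%) and 8 (40%, 19.1 to 63.9%), at 0.81. Nkd1 was detected in 17 (42.5%, 27.04 to 59.1%) and 5 (25%, 8.66 to 49.1%), at 0.61. Axin2 was detected in 9 (22.5%, 10.8 to 38.5%) and 1 (5%, 0.13 to 24.9%), at 0.44. All these intervals overlap. Znrf3 was at 0.49, Tcf7 at 0.50, Ccnd1 at -0.38, Rnf43 at -0.14 and Apcdd1 at -0.21. Sp5 was detected in 2 of 40, one of them the Y-linked cell named above, and in 0 of 20, which allows a share of up to 15%. The median over the 10 members was 0.46, and the median of all compared genes was 0 by construction.

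The cell classes differed between the ligand groups. The 40 cells with both held 37 epithelial-like cells, 3 like mitochondria-rich cells and 0 mesenchymal-like, whereas the 20 with neither held 13, 1 and 6. Listed genes had medians of 4470.5 and 4363. Among epithelial-like mutant cells, 37 with both and 13 with neither, 1 member, Nkd1, counted as higher, with 8.7% of 9950 compared genes higher and 6.58% lower. Nkd1 was detected in 16 of 37 (43.2%, 27.1 to 60.5%) and 2 of 13 (15.4%, 1.92 to 45.4%), with a relative difference of 1.30. Lef1 was at 0.27, Axin2 at 0.32, Tcf7 at 0.14 and Notum at -0.42, so Notum changed sign when other classes were left out. Ccnd1 changed sign as well, to 0.46. Axin2 was detected in 8 of 37 and in 0 of 13, which allows a share of up to 23.1%. The median over the 10 members was 0.097.

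**Figure D4:**
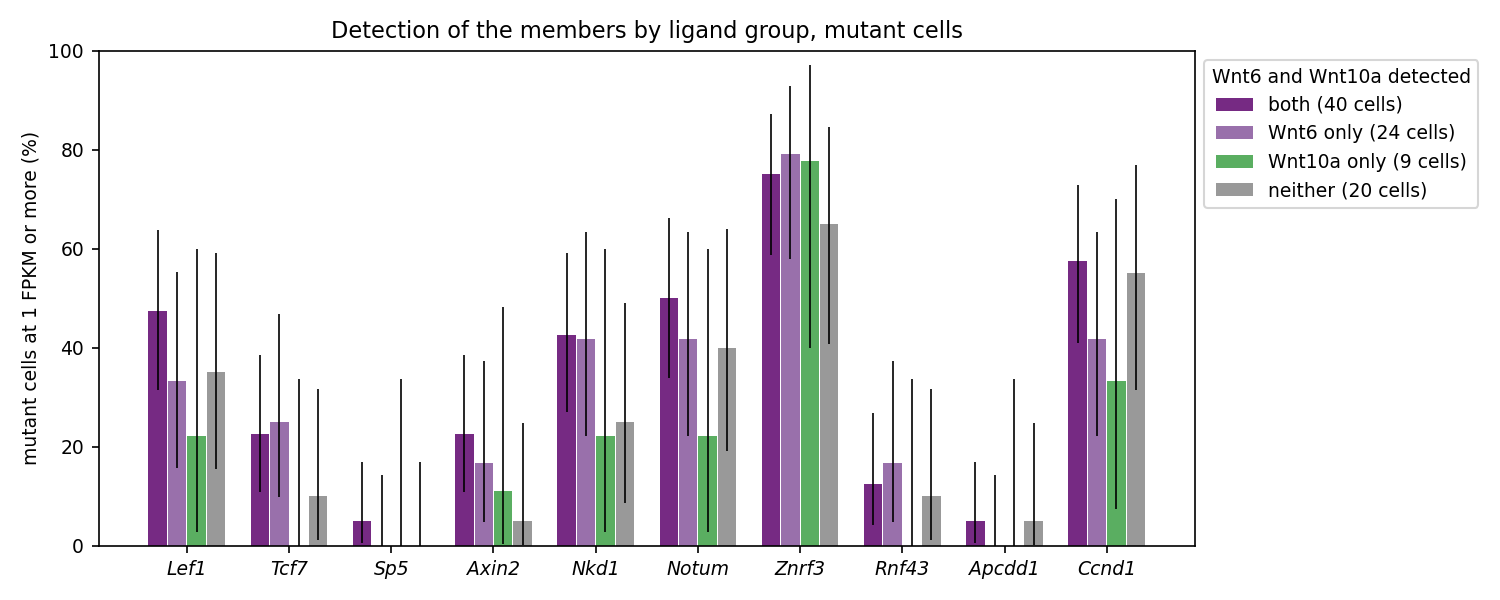
Bars give the share of mutant cells with a member at 1 FPKM or more, in percent, for cells with both ligands (40), Wnt6 alone (24), Wnt10a alone (9) and neither (20), and error bars are exact 95% intervals for counting error. The intervals of each member overlap between cells with both and cells with neither.

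Members were detected together in part. In the 77 mutant epithelial-like cells, Notum was detected in 22 of 32 cells with Lef1 (68.75%) and 17 of 45 without it (37.8%), with a Pearson r of 0.38 of log2(FPKM + 1) over these cells, which come from 1 sample and differ in listed genes (2035 to 9358) and in cluster. In the 29 wild-type epithelial-like cells the shares were 50% and 33.3%, with an r of 0.12. In the 77 mutant cells, Nkd1 was in 50% of those with Lef1 and 24.4% of those without it (r of 0.25). In the 29 wild-type cells these shares were 62.5% and 28.6% (r of 0.41). Among the ligands, Wnt6 was in 78.1% of the mutant cells with Lef1 and 66.7% without it (r of 0.19). Wnt10a was in 59.4% and 60% of these mutant cells (r of -0.05). In wild-type epithelial-like cells, Wnt6 was in 25% and 33.3%, and Wnt10a in 25% and 14.3%. A cell held a median of 3 of the 10 members in both genotypes, from 0 to 5 in wild-type and 0 to 9 in mutant cells, and this number had a Pearson r of 0.41 and 0.40 with the listed genes of a cell. The genes whose pattern over these 77 cells was most like that of each of the 3 members detected in the most cells, of 5768 screened, were Ubl5, Dad1 and Rpl26 for Znrf3 (r of 0.44, 0.41 and 0.40), Etl4, Nedd9 and Stox2 for Ccnd1 (0.46, 0.46 and 0.42), and Cdkn1c, Gpc4 and Aldh1a3 for Notum (0.42, 0.42 and 0.41). The 99th percentile of r over the screened genes was 0.31 for Znrf3, 0.33 for Ccnd1 and 0.32 for Notum. Over the 52 of these cells with 3000 to 5000 listed genes, r in the same order was 0.33, 0.28 and 0.27 for Znrf3. It was 0.46, 0.53 and 0.28 for Ccnd1, and 0.38, 0.47 and 0.47 for Notum.

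For other WNT pathway genes, 84 in 8 lists, 39 passed the filter in the comparison of genotypes, 0 counted as higher and 1 as lower. That gene was Sostdc1, a secreted inhibitor, at -1.55, found in 46.2% of the mutant cells and 66.7% of the wild-type ones. The secreted inhibitor Sfrp2 was at 0.86. Among receptors and co-receptors, 10 of 15 passed, and ran from Fzd3 at -0.42 to Fzd1 at 0.37. Ligands other than Wnt6 and Wnt10a ran from Wnt2b at -0.16 to Wnt7b at 0.16, with 2 of 17 passing. The destruction complex ran from Apc at -0.45 to Csnk1a1 at 0.95, and TCF factors and co-factors from Tcf7l2 at -0.23 to Bcl9 at 0.77. Lgr4, an R-spondin receptor, was at -0.54 and the R-spondin gene Rspo3 at 0.077. Wls, the carrier that brings WNT ligands to the surface, was at -0.096. Of 10 other known WNT target genes, 3 passed the filter and 0 were past the threshold: Myc at 0.31, Jun at -0.03 and Tnfrsf19 at -0.08. The median of the 39 genes was 0.097. In this comparison 0% of them were higher and 2.56% lower, against 1.58% and 6.16% of all compared genes. Between cells with both ligands and with neither, 43 of the 84 passed, 3 of them higher: Wls at 1.70, Sostdc1 at 2.80, and the co-repressor Tle2 at 1.48. Of the other known targets, 4 passed with a median of -0.73, and Tnfrsf19 was lower at -1.56 with Myc at -0.95. These counts are 6.98% and 2.33% of the 43 genes, against 8.48% and 6.41% of all compared genes. They cover all mutant cells, where 6 of the 20 with neither ligand and 0 of the 40 with both were mesenchymal-like. Values for epithelial-like cells alone were not calculated for these genes.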

How the data were processed

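The deposited values are FPKM, 1 column for each cell. Build mm10 and the tools Cufflinks, HISAT2, HTSeq and SAMtools 0.1.18 come from the submitters' processing notes, which assign them no role. Annotation release and strand setting: not given in the sources used here. Rows of 49 identifiers with several rows were summed. FPKM holds no read counts, so depth is unknown and no count test was used. Levels are means of log2(FPKM + 1) with a pseudocount of 1, which understates differences of scarce genes. A minimum of 2000 listed genes per cell left out 0 cells. Doublets were not called, since that needs counts. Cells were clustered by Leiden at resolution 1 on 15 neighbours in 20 principal components of 2000 variable genes (scanpy 1.11.5, leidenalg 0.10.2, Python 3.11.15, numpy 2.4.6, pandas 2.3.3); a cluster was named from marker lists. Intervals are exact binomial (Clopper-Pearson, scipy 1.17.1), cover counting error only, and a count of 0 is given as 3 of the total. Members and lists were chosen with earlier results of these data known. Named genes are the 10 members, Wnt6, Wnt10a, the extremes of each other list between genotypes, and the 3 genes most correlated with each of the 3 members detected in the most cells. Other genes are named as markers, as overlapping genes or because they passed the threshold between ligand groups; Jun, and Myc in that comparison, were added after their values were seen. The calculation was tested on simulated data.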

Additional observations from a re-analysis of the deposited data

How the results depend on the processing

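The number of members higher in mutant cells was 2 as reported. Over all cells it was 5 with a pseudocount of 0.1, 3 after rescaling each cell to a sum of 1000000, with the log2 of the mean FPKM, with genes compared at 1 FPKM in at least 50% of cells and with 3000 to 5000 listed genes, 0 with a pseudocount of 10, and 1 with median-ratio scaling, without a filter on low values, without the wild-type cell that has the mutant prefix, and with detection above 0 FPKM. In epithelial-like cells it was 5 and 0 with the same pseudocounts, 3 with the 50% filter, with 3000 to 5000 listed genes and within cluster 3, and 1 within cluster 2 without the mutant cell that has a Y-linked gene. The third member at 3 was Ccnd1 over all cells, from 1.01 to 1.57. Within cluster 3 the higher members were Tcf7, Notum and Ccnd1, and within cluster 2 they were Lef1 and Ccnd1. Nkd1 was lower with 3000 to 5000 listed genes, at -1.19 over all cells and -1.21 in epithelial-like cells. Lef1 stayed above 0 in all these settings over all cells, from 0.73 to 1.99, and Notum from 0.57 to 1.499. Notum in epithelial-like cells was reversed within cluster 2, at -0.73, and at -0.51 without that mutant cell, settings chosen after seeing the data. The number of members higher in cells with both ligands, 0 as reported, was 4 with a pseudocount of 0.1, 2 after rescaling each cell to a sum of 1000000, 3 with the log2 of the mean FPKM, 1 with 3000 to 5000 listed genes, 2 with detection at 5 FPKM and 1 in epithelial-like cells. The cause was not tested. The share of all compared genes past the threshold is given above for the reported comparisons only. The counts of members under the other settings therefore cannot be set against a background. Of the other values, 962 moved by less than their spread (the SD, or for shares the exact interval), 68 moved by more and 2 were reversed. No paired analysis was possible because no replicate is named. The clusters were not recomputed under these settings. FPKM without read numbers limits what a value of 0 means, and 1 sample per genotype limits every comparison.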
